A study of Mus musculus with 13 samples.

Results

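The 10 genes described here encode the enzymes that write, copy and remove 5-methylcytosine in mouse DNA and their closest partners. They were taken as a fixed list of names, and all 10 were found among the 21887 protein-coding genes of the mm10 annotation. Dnmt3a, Dnmt3b and Dnmt3l place new methylation. Dnmt1, Uhrf1 and Uhrf2 act at replicating DNA. Tet1, Tet2, Tet3 and Tdg belong to the oxidation and base-excision route of removal. The measurement was where BLIMP1, the product of Prdm1, sat on chromatin at these genes in 12 ChIP-seq libraries from 6 cell types.

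All cells were C57BL/6 and carried EGFP knocked in on both alleles at the N terminus of BLIMP1, and chromatin was pulled down with the polyclonal anti-GFP antibody ab290. No untagged cells were analysed here. The germ-lineage types were d2 PGCLC, d6 PGCLC and E12.5 PGC, where PGC are primordial germ cells and PGCLC are their counterparts grown in culture. The d2 PGCLC came from EGFP-Blimp1 ESC lines taken through EpiLCs, were floated with LIF and BMP4, and were sorted as KIT+. The d6 PGCLC had LIF, BMP4, BMP8a, SCF and EGF and were sorted for SSEA1 and INTEGRINβ-3. The E12.5 PGC were SSEA1+ cells of male and of female gonads, with 1 library from each sex, from embryos obtained by ICSI. The somatic types were E16.5 intestinal epithelium (GFP+ EPCAM+), P4 retinal photoreceptor precursors (GFP+) and plasmablasts, which were GFP+ CD138+ cells from B cells stimulated with IL-4 and LPS for 3 days. The files hold summit positions with no expression, so the labelled cell types could not be checked against marker genes.

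As background, BLIMP1 is a zinc-finger repressor needed for germ cell specification and for the terminal step of the B cell lineage. Germ cells lose most of their DNA methylation as they move to and settle in the gonad. Loss by dilution follows when the maintenance enzyme DNMT1 is not brought to new DNA by UHRF1. The TET enzymes oxidise the methyl group, and TDG cuts out the oxidised base.

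A summit is the position of highest pile-up in a peak. Each library had its own list, and the lists ranged from 7998 to 76185 summits, with the longest in d6 PGCLC replicate 1 and 15411 in d6 PGCLC replicate 2. The plasmablast lists held 40750 and 45122, and the other 8 lists lay between 7998 and 26657. A longer list puts more summits at any gene, so each count at the 10 genes is given beside the share of all genes that met the same rule. Summits at most 200 bp apart were joined into regions. A gene or region is called bound in a cell type if each of the 2 libraries of that type placed a summit there, and the E12.5 PGC pair is the male with the female library. Distances are from the transcription starts listed by RefSeq, positive downstream on the gene's strand.

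The gene with the most summits was Dnmt3a, which was also the longest of the 10 at 112.9 kb. It had some in every library, as did Tet1 and Tet3. Tet2 had 3 bound regions in d2 PGCLC and in d6 PGCLC that no somatic library shared, and E12.5 PGC was bound at 1 of these. Plasmablasts had 2 other bound regions in Tet2. Regions with germ-lineage summits alone were 14.7% of the bound regions near the 10 genes and 22.9% of those of the genome. Tet3 and the upstream side of Dnmt3b each had 1 region with summits in all 6 germ-lineage libraries and in no somatic one. Regions bound in all 3 germ-lineage types with no somatic summit were 3.16% of the bound regions near the 10 genes and 3.88% of all those of the genome. The first share is of 3 regions, too few to tell the shares apart. Uhrf1 was bound just upstream of its start in d2 PGCLC, intestinal epithelium and plasmablasts. The starts of Dnmt1, Uhrf2, Tet2, Tet3 and Tdg were bound in both libraries of plasmablasts and of no other cell type, a pattern shared by 27.5% of all genes with a listed start. Plasmablast lists were long, and single libraries of other types also had summits at each of these 5 starts.

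**Figure D1:**
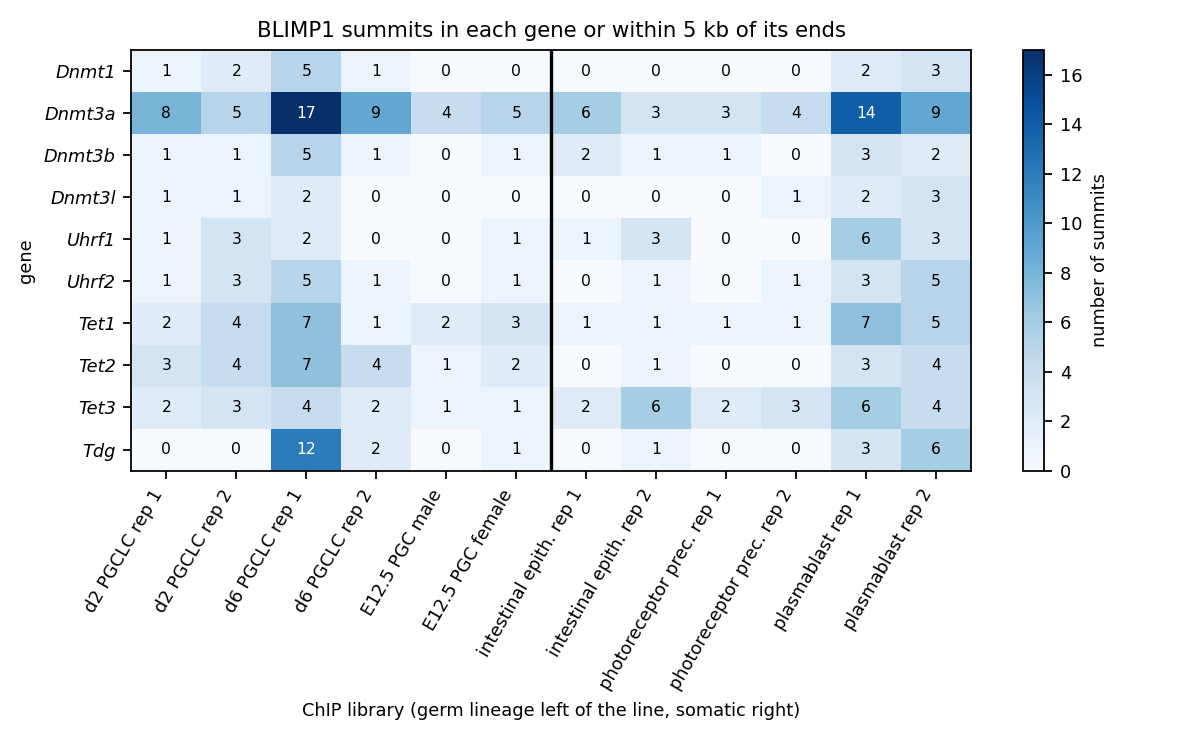
Number of BLIMP1 summits in each of the 10 genes or within 5 kb of its ends (rows) in the 12 libraries (columns), with germ-lineage libraries left of the line and somatic libraries right of it. Dnmt3a had 3 to 17 summits in every library, and the column of d6 PGCLC replicate 1, the longest list, holds 66 summits in all.

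Dnmt3a encodes a de novo methyltransferase. The gene lies on the plus strand at chr12:3801559-3914443 and RefSeq lists an internal start at position 3891744. A shorter isoform, DNMT3A2, is known to start from an internal promoter and to predominate in pluripotent and germ cells. Summits in the gene or within 5 kb numbered 8 and 5 in d2 PGCLC, 17 and 9 in d6 PGCLC, and 4 and 5 in male and female E12.5 PGC, against 6 and 3 in intestinal epithelium, 3 and 4 in photoreceptor precursors and 14 and 9 in plasmablasts. The ranges of the germ-lineage and somatic libraries overlapped.

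One region of Dnmt3a, chr12:3891210-3891446, held a summit of every library. The summits lay upstream of the internal start, at 480 and 414 bp in d2 PGCLC, 453 and 534 bp in d6 PGCLC, and 417 and 430 bp in male and female E12.5 PGC. In the somatic libraries they lay at 399 and 417 bp in intestinal epithelium, 478 and 298 bp in photoreceptor precursors and 469 and 474 bp in plasmablasts. All 12 thus fell within 237 bp of one another.

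A neighbouring region on the other side of that start, chr12:3891948-3892327, was bound in d2 PGCLC, d6 PGCLC, E12.5 PGC and intestinal epithelium. Its summits lay 204 to 583 bp downstream, and no photoreceptor precursor or plasmablast library had one there. Further upstream, chr12:3885050-3885205 had a summit in 11 libraries, 6539 to 6694 bp from the start, and was missed in plasmablast replicate 2 alone. The region chr12:3887680-3887732, about 4.0 kb upstream, was bound in E12.5 PGC and photoreceptor precursors. Within the rest of the gene and up to 50 kb outside it, the bound regions were 9 in plasmablasts, 1 in photoreceptor precursors and 1 in intestinal epithelium, and none in a germ-lineage type.

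The RefSeq sequence (GRCm38.p6) from 250 bases before to 50 bases after the internal start, chr12:3891494-3891793 on the plus strand, is shown because it lies between both regions and held no summit itself. It held no copy of the BLIMP1 or interferon-response motifs, so no letter is in capitals.
Dnmt3a internal start: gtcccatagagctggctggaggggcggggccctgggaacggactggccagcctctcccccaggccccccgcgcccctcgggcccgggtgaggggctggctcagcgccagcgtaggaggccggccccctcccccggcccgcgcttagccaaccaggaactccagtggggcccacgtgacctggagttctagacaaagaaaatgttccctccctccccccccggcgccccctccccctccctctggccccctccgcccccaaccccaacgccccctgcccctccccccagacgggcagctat

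**Figure D2:**
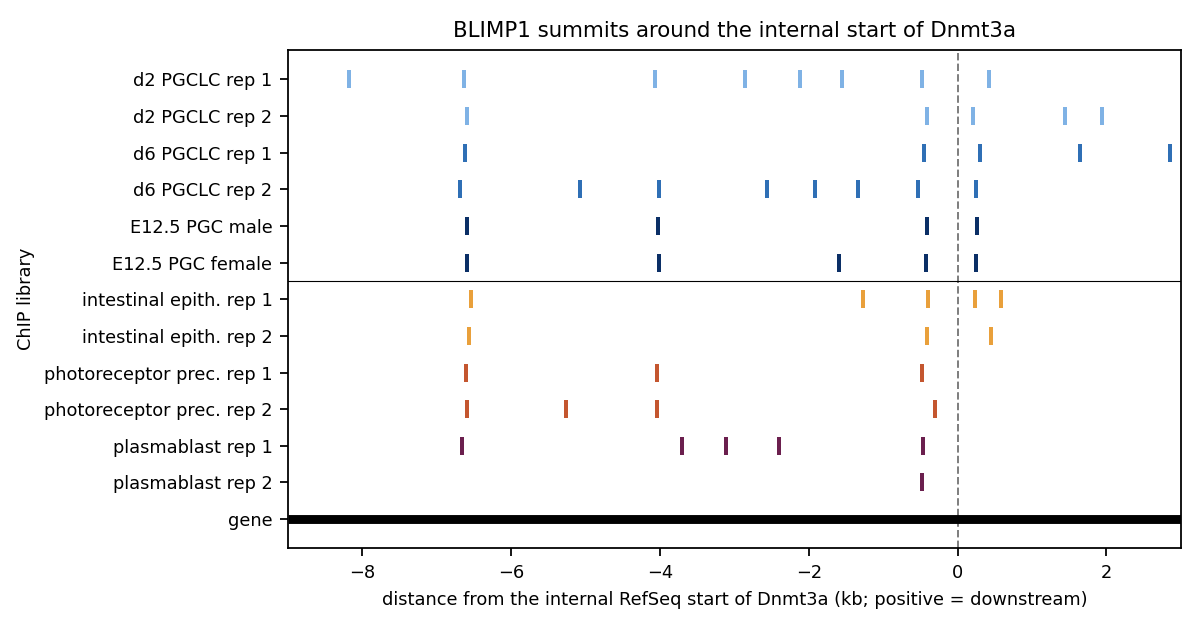
Each tick is 1 BLIMP1 summit, by library (rows, germ lineage above the line and somatic below) and by distance in kb from the internal RefSeq start of Dnmt3a (dashed line); the black bar is the gene. A column of ticks at 298 to 534 bp upstream runs through all 12 libraries, and the ticks at 204 to 583 bp downstream stop at intestinal epithelium.

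Dnmt3b encodes the other de novo methyltransferase, whose level is known to fall in newly specified germ cells. It lies on the plus strand at chr2:153649411-153687730 with 1 listed start. The region chr2:153650328-153650576, just inside the gene, was bound in d2 PGCLC, d6 PGCLC, intestinal epithelium and plasmablasts. Its summits lay 899 and 907 bp downstream of the start in d2 PGCLC, 902 bp in both d6 PGCLC libraries and 956 bp in female E12.5 PGC, and the male library had none. In somatic cells they lay at 1127 and 879 bp in intestinal epithelium and 894 and 905 bp in plasmablasts, with none in photoreceptor precursors. The intestinal summit at 1127 bp falls outside a window of 1 kb, so Dnmt3b counts as bound by the region rule in that tissue and not by the 1 kb rules.

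Upstream of Dnmt3b, chr2:153622667-153622747 had a summit in each of the 6 germ-lineage libraries, at 26719 and 26746 bp in d2 PGCLC, 26721 and 26762 bp in d6 PGCLC, and 26702 and 26782 bp in male and female E12.5 PGC. No somatic library had a summit in it. This region lies 5777 bp from the nearest end of Commd7, closer than to Dnmt3b. A region about 10.0 kb upstream, chr2:153639375-153639543, also held all 6 germ-lineage libraries and, of the somatic ones, plasmablast replicate 1. That region too lies nearer to Commd7, 6664 bp from its nearest end. A region 6.3 kb upstream was bound in d2 PGCLC. The 2 plasmablast libraries met at 16.7 kb upstream, 58 bp from an end of Commd7, and inside the gene at 13.0 kb.

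Dnmt3l encodes a catalytically inactive partner of the de novo enzymes. It lies at chr10:78042287-78063622. Summits in the gene or within 5 kb were few, with 1 and 1 in d2 PGCLC, 2 and 0 in d6 PGCLC and 0 in either E12.5 PGC library. In the somatic types there were 0 in either intestinal library, 0 and 1 in photoreceptor precursors and 2 and 3 in plasmablasts. The region chr10:78068737-78068905, 5.2 kb beyond the end of Dnmt3l and 547 bp from an end of Icosl, held a summit of all 12 libraries. A region 4.0 kb beyond the end was bound in d2 PGCLC, with single summits of 1 d6 PGCLC, 1 photoreceptor precursor and 1 plasmablast library. It lies 1707 bp from the nearest end of Icosl, closer than to Dnmt3l, and it holds the d2 PGCLC summits counted above. A further region, 33.2 kb beyond the end, was bound in d2 PGCLC, d6 PGCLC, E12.5 PGC and plasmablasts. This one too lies nearer to Icosl, 17341 bp from its nearest end.

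Uhrf1 encodes the protein that recognises hemimethylated DNA and brings DNMT1 to it. The gene lies on the plus strand at chr17:56303337-56323486. At its first listed start the region chr17:56303102-56303247 was bound in d2 PGCLC, intestinal epithelium and plasmablasts. The summits lay upstream by 185 and 163 bp in d2 PGCLC and 90 bp in d6 PGCLC replicate 1, against 171 and 235 bp in intestinal epithelium and 140 and 114 bp in plasmablasts. No summit lay there in d6 PGCLC replicate 2, E12.5 PGC or photoreceptor precursors. The female E12.5 PGC library had a summit 42 bp downstream of the second listed start. The window around the first start, chr17:56303087-56303386, plus strand, is shown because 7 libraries had their summit inside it and because it was the only window of the 10 genes with AGNGAAAG. Capitals mark AGGGAAAG, 129 to 122 bp upstream of the start, and the other copies of GAAAG or its complement CTTTC.
Uhrf1 first start: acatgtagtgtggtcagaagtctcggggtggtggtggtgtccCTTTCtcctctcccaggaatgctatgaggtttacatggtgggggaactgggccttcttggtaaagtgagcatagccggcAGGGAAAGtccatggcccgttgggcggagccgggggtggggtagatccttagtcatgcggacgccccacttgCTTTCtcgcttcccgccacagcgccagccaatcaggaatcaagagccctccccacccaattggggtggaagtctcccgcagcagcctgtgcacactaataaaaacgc

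Dnmt1 encodes the maintenance methyltransferase and lies on the minus strand at chr9:20907206-20959888. At its first start, position 20959888, no bound region lay within 1 kb. At the second listed start, position 20952979, plasmablasts were bound, with summits 14 and 45 bp downstream. Of the germ-lineage libraries, d2 PGCLC replicate 2 had a summit 18 bp downstream and d6 PGCLC replicate 1 had one 57 bp upstream, so neither cell type was bound there. The d6 PGCLC libraries met in chr9:20951343-20951451, 1.2 kb downstream of the third start, where d2 PGCLC replicate 2 also had a summit and no somatic library did. About 29.9 kb upstream of the gene, chr9:20989534-20989945 held a summit of all 6 germ-lineage libraries and of both plasmablast libraries. That region lies 11512 bp from the nearest end of Mrpl4, closer than to Dnmt1. The window around the second start, chr9:20952930-20953229, minus strand, is shown because 4 libraries had a summit in it, and it held no copy of the motifs searched for.
Dnmt1 second start: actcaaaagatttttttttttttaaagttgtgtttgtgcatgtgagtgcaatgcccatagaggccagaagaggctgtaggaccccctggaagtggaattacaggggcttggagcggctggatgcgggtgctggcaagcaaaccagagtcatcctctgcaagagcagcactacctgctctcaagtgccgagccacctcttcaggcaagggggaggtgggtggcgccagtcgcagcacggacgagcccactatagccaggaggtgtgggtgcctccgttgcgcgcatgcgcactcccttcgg

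Uhrf2 encodes the paralogue of UHRF1 and lies on the plus strand at chr19:30030430-30093726. The region chr19:30029043-30029212 was bound in d2 PGCLC and d6 PGCLC, with the female E12.5 PGC library also present and no somatic library. Its summits lay 1301 to 1470 bp upstream of the start. At the start itself plasmablasts were bound, at 23 bp downstream and 195 bp upstream, beside a single library each of intestinal epithelium, at 187 bp upstream, and of photoreceptor precursors, at 74 bp upstream. A region 10.0 kb beyond the gene, chr19:30103560-30103940, was bound in every cell type but intestinal epithelium, where replicate 1 had a summit. That region lies 5309 bp from the nearest end of Gldc, closer than to Uhrf2.

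**Figure D3:**
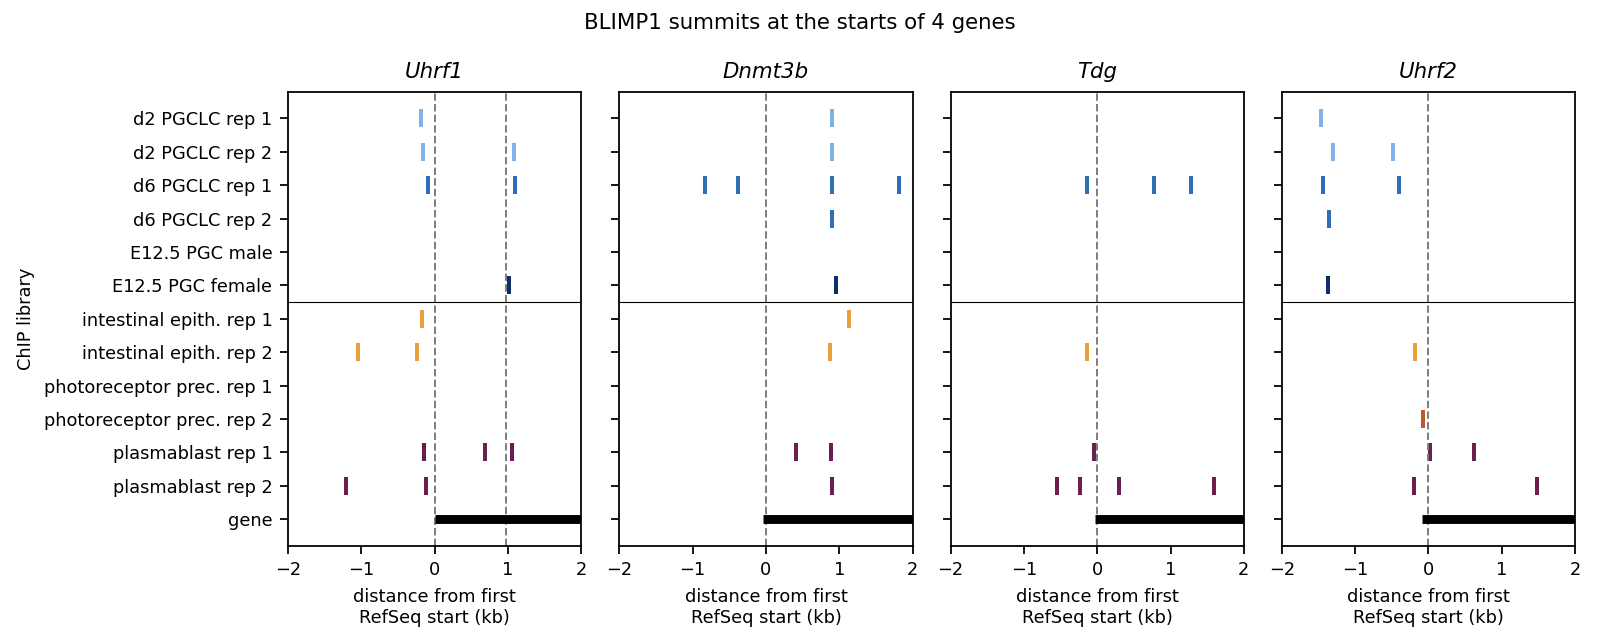
BLIMP1 summits (ticks) within 2 kb of the first RefSeq start of Uhrf1, Dnmt3b, Tdg and Uhrf2, by library (rows, germ lineage above the line, somatic below) and distance in kb; dashed lines are listed starts and the black bar is the gene. At Uhrf1 ticks of 7 libraries stand 90 to 235 bp upstream, at Dnmt3b those of 9 libraries stand 879 to 1127 bp downstream, and at Uhrf2 the germ-lineage ticks at 1301 to 1470 bp upstream are apart from the somatic ones.

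Tet1 encodes the dioxygenase that is abundant in pluripotent cells and PGC. The gene lies on the minus strand at chr10:62804570-62887469. Summits in the gene or within 5 kb numbered 2 and 4 in d2 PGCLC, 7 and 1 in d6 PGCLC and 2 and 3 in male and female E12.5 PGC, against 1 in each intestinal and each photoreceptor precursor library and 7 and 5 in plasmablasts. The region chr10:62821354-62821535, 65.9 kb downstream of the start, held a summit of 10 libraries, all but those of photoreceptor precursors. The region chr10:62838309-62838463 was bound in d2 PGCLC and E12.5 PGC, and no somatic library had a summit in it. Elsewhere in the gene, plasmablasts were bound at 1.2, 3.3 and 23.6 kb downstream of the start, and photoreceptor precursors at 36.2 kb. At 1.2 kb, d2 PGCLC replicate 2 and d6 PGCLC replicate 1 also had a summit. A region 9.1 kb beyond the gene was bound in E12.5 PGC, with a summit of d2 PGCLC replicate 2 and of d6 PGCLC replicate 1 and of no somatic library. It lies 3105 bp from the nearest end of Ccar1, closer than to Tet1.

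Tet2 encodes a TET enzyme that lacks the CXXC domain found in TET1. The gene lies on the minus strand at chr3:133463677-133545136. Summits in the gene or within 5 kb numbered 3 and 4 in d2 PGCLC, 7 and 4 in d6 PGCLC and 1 and 2 in male and female E12.5 PGC. In the somatic types they numbered 0 and 1 in intestinal epithelium, 0 in either photoreceptor precursor library and 3 and 4 in plasmablasts. The region chr3:133533638-133533830 held all 6 germ-lineage libraries and no somatic one, at 10606 and 10752 bp downstream of the start in d2 PGCLC, 10646 and 10672 bp in d6 PGCLC, and 10560 and 10618 bp in male and female E12.5 PGC. The region chr3:133524624-133524753, 19.7 kb downstream, was bound in d2 PGCLC and d6 PGCLC with a summit in female E12.5 PGC as well. The third, chr3:133519031-133519055, 25.3 kb downstream, was bound in d2 PGCLC and d6 PGCLC, and its 4 summits lay within 25 bp. Plasmablasts were bound at 0.6 kb upstream of the start, where d6 PGCLC replicate 1 also had a summit, and at 1.7 kb downstream.

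Tet3 encodes the TET enzyme best known from the zygote. The gene lies on the minus strand at chr6:83362373-83457208. The region chr6:83421884-83421933 held a summit of all 6 germ-lineage libraries within 50 bp and no somatic one. The summits lay 19794 and 19745 bp downstream of the listed start in d2 PGCLC, 19760 and 19781 bp in d6 PGCLC, and 19754 and 19776 bp in male and female E12.5 PGC. The somatic types used other places: photoreceptor precursors were bound at 6.3 and 62.2 kb downstream, intestinal epithelium at 2.8 and 4.4 kb upstream of the gene, and plasmablasts 0.2 kb downstream of the start and at 9.4, 13.9 and 15.2 kb upstream of it. Of these, the one 13.9 kb upstream was also bound in d6 PGCLC.

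**Figure D4:**
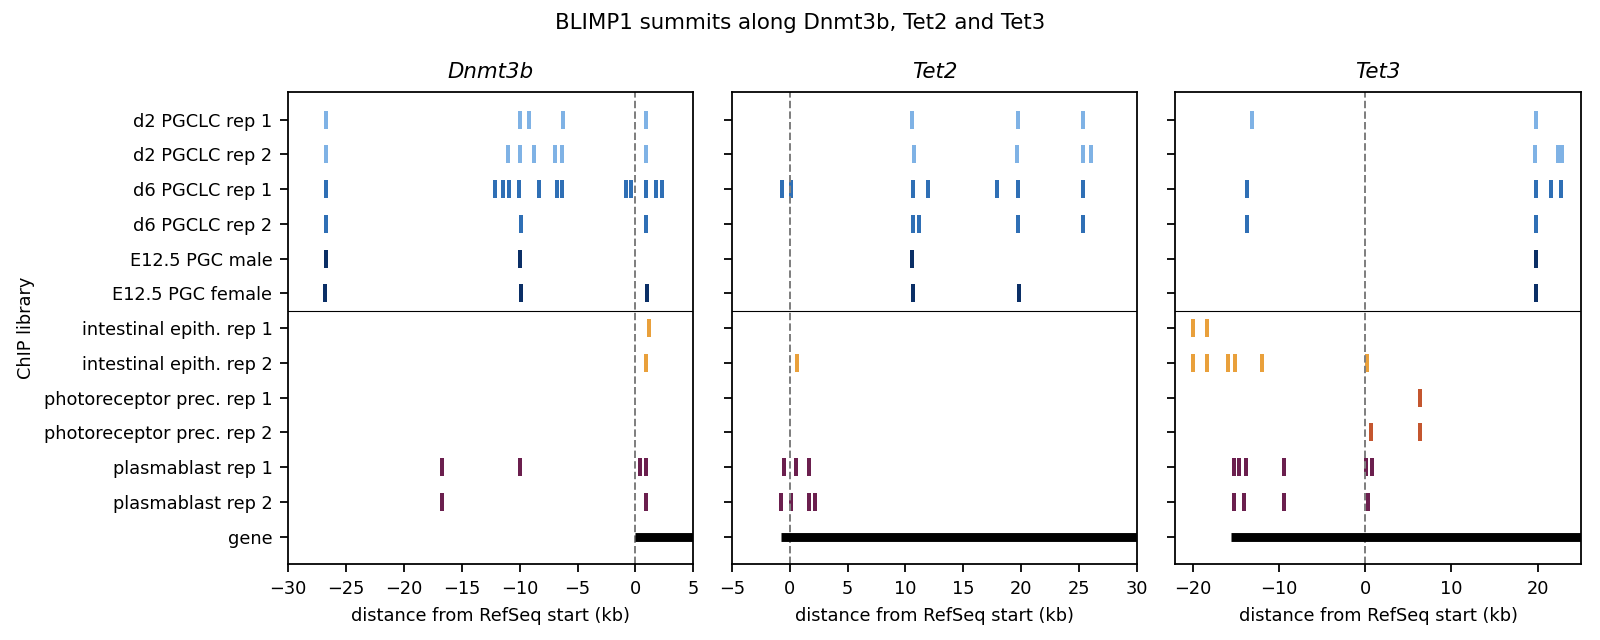
BLIMP1 summits (ticks) along Dnmt3b, Tet2 and Tet3 by library (rows, germ lineage above the line, somatic below) and distance in kb from the RefSeq start (dashed line); the black bar is the gene. Columns of ticks through all 6 germ-lineage rows and through no somatic row stand at 26.7 kb upstream in Dnmt3b, 10.7 kb downstream in Tet2 and 19.8 kb downstream in Tet3.

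Tdg encodes the glycosylase that excises oxidised methylcytosine. It lies on the plus strand at chr10:82629814-82650799. Summits in the gene or within 5 kb numbered 0 and 0 in d2 PGCLC, 12 and 2 in d6 PGCLC and 0 and 1 in male and female E12.5 PGC. In the somatic types they numbered 0 and 1 in intestinal epithelium, 0 in either photoreceptor precursor library and 3 and 6 in plasmablasts. The 12 came from the longest list. The d6 PGCLC libraries met 9.3 and 11.7 kb downstream of the start, where no somatic library had a summit. At the start, plasmablasts were bound, at 45 and 228 bp upstream, with a summit of d6 PGCLC replicate 1 at 143 bp and of intestinal epithelium replicate 2 at 136 bp. The window around it, chr10:82629588-82629887, plus strand, is shown because 4 libraries had a summit in it. Capitals mark its copy of GAAAG, 88 to 84 bp upstream.
Tdg start: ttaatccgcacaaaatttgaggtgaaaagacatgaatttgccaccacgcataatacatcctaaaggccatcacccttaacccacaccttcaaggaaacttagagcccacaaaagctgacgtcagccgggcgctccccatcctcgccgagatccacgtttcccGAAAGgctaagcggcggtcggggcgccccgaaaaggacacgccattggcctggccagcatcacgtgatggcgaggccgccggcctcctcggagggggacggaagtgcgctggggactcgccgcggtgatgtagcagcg

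Counted together, members bound within 1 kb of either gene end were 2 of 10 in d2 PGCLC (Dnmt3b and Uhrf1), where 8.41% of all protein-coding genes were bound, 1 in d6 PGCLC (Dnmt3b), where 9.72% were, and 0 in E12.5 PGC, where 5.79% were. They were 1 in intestinal epithelium (Uhrf1) beside 7.29% of all genes, 0 in photoreceptor precursors beside 9.68% and 7 in plasmablasts beside 39.7%. The 7 were Dnmt3b, Dnmt3l, Uhrf1, Uhrf2, Tet2, Tet3 and Tdg.

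The rule on gene ends misses starts inside a gene. With a summit within 1 kb of any listed start, and 17492 genes with one, the count was 3 in d2 PGCLC (Dnmt3a, Dnmt3b and Uhrf1; 8.11% of all genes), 2 in d6 PGCLC (Dnmt3a and Dnmt3b; 9.38%) and 1 in E12.5 PGC (Dnmt3a; 5.84%). It was 2 in intestinal epithelium (Dnmt3a and Uhrf1; 7.53%), 1 in photoreceptor precursors (Dnmt3a; 10.4%) and 8 in plasmablasts, all but Dnmt3l and Tet1 (41.9%). Dnmt3a was the 1 member bound at a start in all 6 cell types, which 2.50% of genes were, and it was so whichever library was left out. Bound at a start in plasmablasts and in no other type were 5 members, Dnmt1, Uhrf2, Tet2, Tet3 and Tdg, beside 27.5% of genes. The other start counts rest on single libraries. With 1 library of a type left out and the other alone defining it, they ran from 3 to 5 in d2 PGCLC, from 2 to 8 in d6 PGCLC, from 1 to 4 in E12.5 PGC, from 2 to 7 for intestinal epithelium and from 1 to 3 for photoreceptor precursors, while plasmablasts had 8 either way. The share of all genes was not computed for these settings, and the 8 of d6 PGCLC came from the longest list alone. Without d6 PGCLC replicate 2, Dnmt1, Uhrf2, Tet2 and Tdg were bound at a start in d6 PGCLC too. Without intestinal epithelium replicate 1, Uhrf2, Tet2, Tet3 and Tdg were bound in that tissue too, so each of the 5 lost its restriction to plasmablasts in at least 1 of these settings.

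With the whole gene and 5 kb around it, 8 members held a bound region in d2 PGCLC (26.0% of all genes). The d6 PGCLC had 8 such members (26.3%) and the E12.5 PGC had 4 (18.8%). Among the somatic types, intestinal epithelium had 5 (16.1%), photoreceptor precursors 3 (20.6%) and plasmablasts 10 (49.4%). The 4 of E12.5 PGC were Dnmt3a, Tet1, Tet2 and Tet3. Dnmt3a, Tet1 and Tet3 held a bound region in all 6 cell types, which 5.84% of all genes did. Those missing in d2 PGCLC were Dnmt1 and Tdg, and those missing in d6 PGCLC were Dnmt3l and Uhrf1. The 10 genes had a median length of 58.0 kb, against 17.2 kb for all protein-coding genes, and a longer gene takes in more regions by this rule, so these shares are not at like length.

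**Figure D5:**
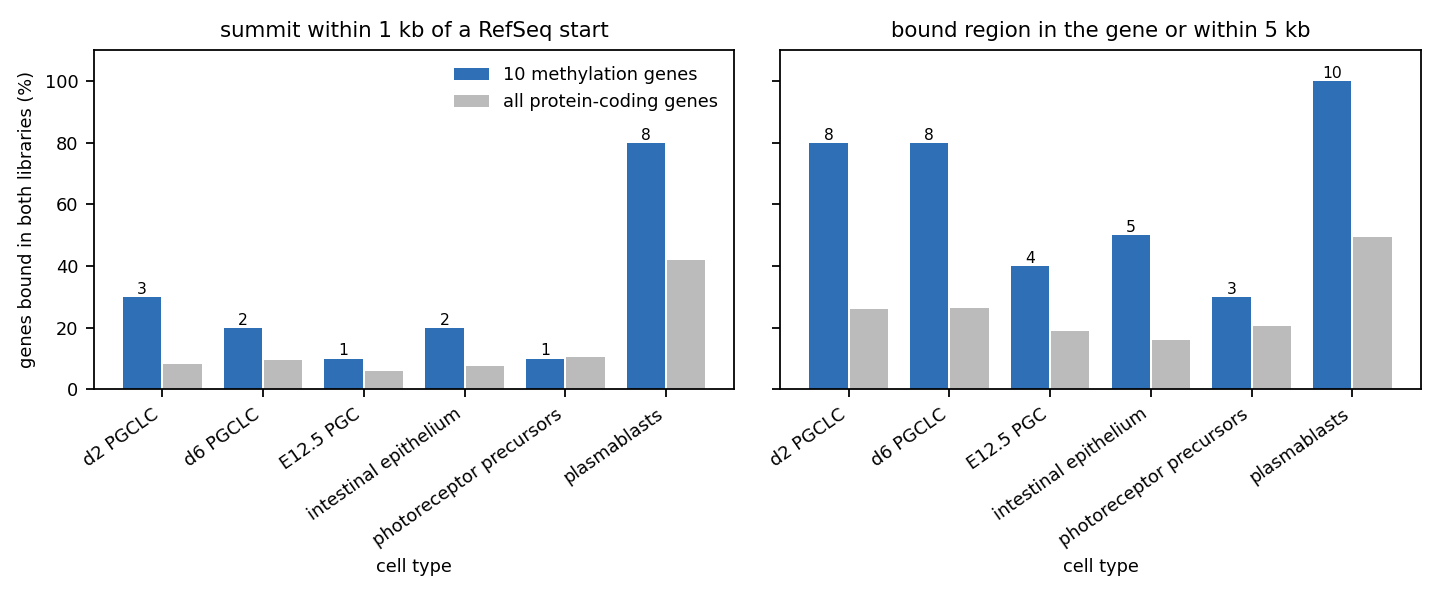
Percent of the 10 methylation genes (blue, with their number) and of all protein-coding genes (grey) bound in both libraries of each cell type, by a summit within 1 kb of a listed RefSeq start (left, grey over the 17492 genes with a listed start) or by a region in the gene or within 5 kb (right, grey over all 21887 genes). Plasmablasts have the tallest bars by both rules, with 8 and 10 members.

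Within 50 kb of the 10 genes lay 95 bound regions, 37 in a gene, 2 within 1 kb, 5 within 5 kb and 51 within 50 kb. Of these 51, 16 were within 1 kb of an end of another gene, among them Ppan, Eif3g, Pomc, Plin3, Fem1a, Ticam1, Ccar1, Slc25a16, Mthfd2, Hcfc2 and Dguok. In 14 of the 95 (14.7%, against 22.9% of the 41901 bound regions of the genome) only germ-lineage libraries had a summit, in 49 (51.6%, against 42.8%) only somatic ones, and 32 (33.7%, against 34.3%) had both. Regions bound in all 3 germ-lineage types with no somatic summit numbered 3, or 3.16% against 3.88% of the genome. They were those of Dnmt3b, Tet2 and Tet3 given above. Regions bound in all 6 cell types numbered 2, or 2.11% against 2.61%, at Dnmt3a and beyond Dnmt3l. Regions with summits of plasmablast libraries alone numbered 29, or 30.5% against 28.7%. These counts rest on single libraries in part. Without d6 PGCLC replicate 2 the germ-lineage regions numbered 102 of 197, and without d2 PGCLC replicate 1 they numbered 39 of 124. Without plasmablast replicate 1 the somatic regions numbered 86 of 141, and without plasmablast replicate 2 they numbered 85 of 140. Genome shares were not computed for these settings, so whether the genome shifted alike is not known. Within 1 kb of a listed start lay 9 of the 95 regions. These were 0 of the 14 germ-lineage regions, 3 of the 49 somatic ones and otherwise regions with both. So few lay near a start that the classes cannot be told apart in this. Inside a gene lay 8 of the 14, beside 37 of the 95.

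The number of bound regions in each gene or within 5 kb was set against cell type with d2 PGCLC, d6 PGCLC and E12.5 PGC on one side and the somatic types on the other, by an exact two-sided permutation test over the 20 splits of 6 cell types. The smallest p it can give is 0.10, so no gene can pass at 0.05. After Benjamini-Hochberg adjustment over all 21887 genes the lowest value was 1.000. For Tet2 the counts were 3, 3 and 1 in d2 PGCLC, d6 PGCLC and E12.5 PGC, against 0, 0 and 2 in intestinal epithelium, photoreceptor precursors and plasmablasts, a mean difference of 1.67 (exact p = 0.20). For Tet3 they were 1, 2 and 1 against 2, 2 and 4, a difference of -1.33 (exact p = 0.30). The cell types also differed in list length and in the labelled number of cells per library. Fewer cells than in any somatic library were used for both E12.5 PGC libraries and for replicate 1 of d2 PGCLC and of d6 PGCLC. Most were used for d2 PGCLC replicate 2. The part of list length or cell number in these differences was not tested. The other 8 differences lay between -0.67 and 0.00 regions, with exact p between 0.70 and 1.00. In 0 of the 10 genes did all germ-lineage counts lie apart from all somatic ones, which was so for 2.73% of all genes, and 1.92% had every germ-lineage type above.

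Counted as summits per 10000 listed in a library, averaged over the libraries of a type, Tet2 had 1.67, 1.76 and 0.97 in d2 PGCLC, d6 PGCLC and E12.5 PGC, against 0.41, 0.00 and 0.81 in intestinal epithelium, photoreceptor precursors and plasmablasts. The germ-lineage values were all above the somatic ones, which held for 5.29% of all genes (exact permutation p = 0.10, the smallest possible). By single library they overlapped, with 0.81 in male E12.5 PGC against 0.83 in intestinal epithelium replicate 2 and 0.89 in plasmablast replicate 2. Tet3 had 1.18, 0.91 and 0.69, against 3.73, 2.00 and 1.18, with every germ-lineage value below the somatic ones, d2 PGCLC and plasmablasts differing only past the second decimal. That order held for 5.79% of all genes. Tet2 and Tet3 are 81.5 and 94.8 kb long, against a median of 17.2 kb for all protein-coding genes. These 2 shares are thus not at like length. Single libraries of Tet3 overlapped as well, with 1.30 in d6 PGCLC replicate 2 against 0.89 in plasmablast replicate 2. In the other 8 genes the values of the germ-lineage and somatic types overlapped.

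Over all 17 listed starts of the 10 genes, GAAAG, the core of the BLIMP1 motif, was in 7 windows of 250 bases before to 50 after the start, on either strand, and in 57.3% of 32851 windows of all promoters in the table. AGNGAAAG, the core with its flank, was in 1, that of Uhrf1, and in 8.63% of all. The interferon-response element, a pair of GAAA steps with 2 free bases between them that can overlap the BLIMP1 motif, was in 0 and in 3.44% of all. A summit lay in 6 of the 17 windows, and of these 6 the first window of Uhrf1 was the 1 with AGNGAAAG. The Uhrf2 window, chr19:30030263-30030562, plus strand, held 4 summits, all somatic, and no copy of any of these motifs.
Uhrf2 start: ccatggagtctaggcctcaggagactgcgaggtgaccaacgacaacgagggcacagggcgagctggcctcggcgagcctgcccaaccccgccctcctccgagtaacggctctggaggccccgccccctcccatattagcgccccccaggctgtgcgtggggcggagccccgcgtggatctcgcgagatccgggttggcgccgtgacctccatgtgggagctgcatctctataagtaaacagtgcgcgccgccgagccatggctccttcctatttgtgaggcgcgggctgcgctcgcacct

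The other genes of the pathway were read as 3 lists, by the rule of 1 kb from a gene end. Of 14 genes that target or maintain methylation, 3, 4 and 1 were bound in d2 PGCLC, d6 PGCLC and E12.5 PGC, against 2, 2 and 8 in intestinal epithelium, photoreceptor precursors and plasmablasts. Cdca7, a partner of the remodeller HELLS, was bound in all types but intestinal epithelium. Prmt5, an arginine methyltransferase, was bound in d2 PGCLC, d6 PGCLC, intestinal epithelium and plasmablasts. Its bound regions in the gene or within 5 kb numbered 0, 1 and 0 in the germ-lineage types, against 1, 0 and 2 in the somatic ones. The d2 PGCLC libraries thus did not share a region there. Nsd1, a histone methyltransferase whose H3K36 mark recruits DNMT3A, had 2, 3 and 1 bound regions in the germ-lineage types, against 1, 1 and 4 in the somatic ones. Usp7, a deubiquitinase that binds DNMT1, had 1, 1 and 0, against 0, 0 and 3.

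Of 19 genes of excision repair and deamination, 2, 2 and 1 were bound in d2 PGCLC, d6 PGCLC and E12.5 PGC, against 2, 4 and 15 in intestinal epithelium, photoreceptor precursors and plasmablasts. Gadd45g, a stress-response gene of the GADD45 family, was bound in all 6 types, with 4, 2 and 2 bound regions in the germ-lineage types, against 2, 2 and 2 in the somatic ones. Apobec1, a cytidine deaminase that edits RNA, was bound near an end in all 3 somatic types and in no germ-lineage type, although each of the 6 types had 1 bound region in it or within 5 kb. Gadd45b, of the same family as Gadd45g, was bound near an end in plasmablasts, although all 6 types had a bound region in it or within 5 kb. These numbered 1, 1 and 1 in the germ-lineage types, against 1, 1 and 3 in the somatic ones.

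Of 10 genes that supply the methyl donor or the TET cofactor, 1, 2 and 1 were bound in d2 PGCLC, d6 PGCLC and E12.5 PGC, against 0, 2 and 6 in intestinal epithelium, photoreceptor precursors and plasmablasts. Mat2a, the catalytic subunit of the enzyme that makes S-adenosylmethionine, was bound near an end in all 3 germ-lineage types and photoreceptor precursors, although all 6 types had a bound region in it or within 5 kb, with 1, 1 and 1 in the germ-lineage types, against 1, 2 and 2 in the somatic ones. Its regulatory subunit Mat2b was bound near an end in plasmablasts, as was Shmt2 of the mitochondrial folate cycle. In Shmt2 or within 5 kb, d2 PGCLC, d6 PGCLC and E12.5 PGC had 2, 1 and 0 bound regions. Intestinal epithelium, photoreceptor precursors and plasmablasts had 0, 1 and 4 there. Idh1, which makes the TET cofactor 2-oxoglutarate, was bound in d6 PGCLC, photoreceptor precursors and plasmablasts. The share of all genes bound by this rule is that given with the members, from 5.79% in E12.5 PGC to 39.7% in plasmablasts.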

How the data were processed

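Chromatin from 12 libraries of EGFP-tagged BLIMP1 was sequenced, and the deposited lists give each library's summits as a chromosome and a position, with no score. Tools named in the submitters' processing notes are MACS2 2.1, Bowtie 1.1.2, cutadapt 1.7.1 and Trim Galore 0.3.7, and the build is mm10. How deep the libraries were sequenced, which control and threshold the caller used, and whether the first base is 0 or 1 are not given in the sources used here. Positions are therefore printed as deposited and may be off by 1 bp. The input library was not analysed here.

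Groups came from the labels, which do not say whether libraries of a cell type came from separate animals or cultures, so their agreement may be technical. Chromosomes 1 to 19, X and Y were used. Gene spans came from RefSeq GRCm38.p6, which has mm10 coordinates. Starts, strands and promoter sequences came from RefSeq promoter windows, which matched all 10 genes. Exons were not used here, so exon or intron is not stated. Bound calls need both libraries of a type and are counts with no test. The permutation test was checked on simulated data only with germ-lineage counts raised by more regions than any difference reported here. That check therefore does not cover differences of the size reported. Python 3.11.15 with numpy 2.4.6 was used.

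The 10 genes, the 3 lists of other pathway genes (14, 19 and 10 genes, all matched) and the rules were chosen with earlier results of these data known. Of the other pathway genes, those named were bound near an end in all germ-lineage or all somatic types, or were among the 4 of their list with the most bound regions in the gene or within 5 kb. The result of 1 gene that met this rule is not reported here. Neighbouring genes were named where a bound region lay within 1 kb of their end, or where a region described singly lay nearer to their end than to the gene described. Alternatives were windows of 1, 5 and 50 kb, starts only, merging at 100 or 500 bp, either library in place of both, the same region in both libraries, summits per 10000, and leaving out each library.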

Additional observations from a re-analysis of the deposited data

How the results depend on the processing

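Leaving out a library lets the other alone define its cell type. Members bound within 1 kb of an end then numbered 1 to 6 for d6 PGCLC, 0 to 2 for E12.5 PGC, 1 to 5 for intestinal epithelium and 0 to 1 for photoreceptor precursors. Members with a bound region in the gene or within 5 kb numbered 4 to 8 in E12.5 PGC, 5 to 8 in intestinal epithelium and 4 to 5 in photoreceptor precursors. Bound regions within 50 kb numbered 95 to 197, those with germ-lineage summits alone 14 to 102, with somatic summits alone 48 to 86, and those of all 3 germ-lineage types with no somatic summit 3 to 6. The highest values of the d6 PGCLC count (6), of all regions (197) and of germ-lineage regions (102) came without d6 PGCLC replicate 2, when the longest list stood alone, and germ-lineage regions numbered 39 without d2 PGCLC replicate 1. No share of all genes or of the genome was computed with a library left out, or with either library in place of both.

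With either library in place of both, regions numbered 309 in all, 129 germ-lineage, 126 somatic, 54 with both and 9 of all 3 germ-lineage types. Members bound near an end were then 6 for d6 PGCLC, 2 for E12.5 PGC, 5 for intestinal epithelium and 1 for photoreceptor precursors, and those with a region within 5 kb were 8, 8 and 6 in the last 3. Starts alone gave 2 for d6 PGCLC, 1 for E12.5 PGC, 2 for intestinal epithelium and 1 for photoreceptor precursors. A window of 5 kb gave 4 for d2 PGCLC, 3 for d6 PGCLC and 3 for intestinal epithelium, and asking for the same region gave 2 in intestinal epithelium. Within 50 kb a bound region was held by 9 in E12.5 PGC, 8 in intestinal epithelium and 6 in photoreceptor precursors. The cause of these shifts was not tested. Plasmablast counts of members stayed at 7 and 10 whichever library was left out.

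Of 170 settings of the germ-lineage minus somatic difference per gene, 13 turned its sign. A setting that brought the difference to 0.00 was not counted as a turn. Dnmt1 had 0.25 per 10000 summits, and its range over left-out libraries was -0.67 to 1.00, with 0.33 without d2 PGCLC replicate 1. Dnmt3a had 0.33 with merging at 100 bp and -3.00 to 4.00 over left-out libraries, with 0.33 and 1.33 without either d2 PGCLC library and 1.67 and 4.00 without either d6 PGCLC library. Dnmt3b had 1.67 within 50 kb and -0.67 to 1.00 over left-out libraries. Tet1 had 0.18 per 10000 summits and -1.33 to 1.67 over left-out libraries, with 0.33 without d2 PGCLC replicate 1. Dnmt3l, Uhrf2 and Tdg, at 0.00, have no sign to turn, though their settings are among the 170. Over left-out libraries Tdg ran from -1.33 to 3.33, highest without d6 PGCLC replicate 2, Uhrf2 from -1 to 1.33 and Dnmt3l from -0.67 to 0.67. Tet2 stayed between 1.00 and 3.00 and Tet3 between -3.00 and -0.67 in every setting. Summit lists without read depth limit every count.

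No paired analysis was possible because the test compares cell types with 1 value each and the E12.5 PGC libraries carry no replicate numbers.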
